A study of Mus musculus with 4 samples.

Results

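The genes described here are Hdac1, Hdac2, Hdac3 and Hdac8, the class I histone deacetylases of the mouse. They are 4 of the 18820 genes with a value of their own, and they were found by symbol in the annotation of the Affymetrix Mouse Gene 1.1 ST array, which gives them 5 of its 23099 named probe sets. Hdac1 has 2 probe sets and each of the other genes has 1. All 4 genes were measured on every array.

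The samples were RNA pools from whole testes of adult male mice. There were 2 pools from Azin2 KO mice and 2 from Azin2 WT mice, each made from 3 testes, and each pool was hybridized to 1 array. Per the study's methods, the KO mice carry a β-Geo cassette inserted in the Azin2 locus and were kept in a C57BL/6 mixed background, while the strain of the WT mice is not given in the sources used here. A fusion of the start of AZIN2 with β-galactosidase is made from this allele under the Azin2 promoter, and the insertion is present in all cell types rather than in a chosen one. The values are log2 signals from RMA, a method that corrects the background, brings the arrays to one distribution and joins the probes of each set into 1 value. A difference of 1 on this scale is a doubling of the signal.

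Class I deacetylases are zinc-dependent enzymes of the nucleus that remove acetyl groups from lysines of histones and other proteins, and are known mainly for keeping chromatin less accessible. Hdac1 and Hdac2 encode closely related catalytic subunits of the SIN3, NuRD and CoREST corepressor complexes, Hdac3 encodes the enzyme of the NCoR/SMRT complex, and Hdac8 encodes an enzyme that works outside these complexes and acts on cohesin. In the testis, histones of elongating spermatids become highly acetylated before protamines replace them, so that enzymes adding and removing this mark are of interest in male germ cells.

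Hdac1 was chosen for its difference between KO and WT testes, which is therefore described and not tested. The same holds for the other class I genes, which were taken with it. Hdac1 lies 0.58 Mb from Azin2 on chromosome 4 (GRCm38.p6), whereas Hdac2, Hdac3 and Hdac8 lie on other chromosomes.

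The labels were first checked on Azin2, the antizyme inhibitor gene targeted in these mice. Its log2 signal was 7.36 and 7.14 in the KO pools and 10.16 and 9.998 in the WT pools (log2 difference -2.83, standard error 0.10, adjusted p = 0.0250 from limma with the Benjamini-Hochberg adjustment). It was the 1 of 23099 named probe sets past an adjusted p of 0.05, a share of 0.00433%. Median signals of the arrays ran from 6.08 to 6.11. Of 56 markers of 9 testis cell types, 52 had a value and 48 of these lay above the array medians, as did 11453 of the 18820 genes. Among the 48 were all 8 spermatocyte and all 8 spermatid markers. As the material was whole testis, fewer cells of a type and less RNA per cell cannot be told apart.

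Hdac1 expression was higher in KO than in WT testes in both of its probe sets. The brighter set had log2 signals of 11.28 and 11.31 in KO replicates 1 and 2 and of 10.90 and 10.86 in WT replicates 1 and 2. Both KO pools lay above both WT pools, and the lower KO pool was 0.38 above the higher WT pool on the log2 scale. The pools of one genotype were 0.031 apart in KO and 0.040 apart in WT. The mean was 11.29 ± 0.022 (SD, n = 2 pools) in KO and 10.88 ± 0.028 (SD, n = 2) in WT, a log2 difference of 0.41 (standard error 0.050), or 33.1% more signal in KO testes. Of the named probe sets, 32 (0.139%) had a log2 difference at least as high.

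The second Hdac1 probe set gave log2 signals of 11.22 and 11.28 in the KO pools and 10.87 and 10.83 in the WT pools. The arrays fell in the same order as in the first set, with KO replicate 2 highest and WT replicate 2 lowest. Its log2 difference was 0.40 (standard error 0.051), and its lower KO pool was 0.35 above its higher WT pool. After the mean of each set was taken off, the profiles differed by a root mean square of 0.011. This is no second measurement of independent samples, since both sets were read on the same 4 arrays and the annotation pairs them with the same gene and transcript. RefSeq also lists a pseudogene copy, Hdac1-ps, and no probe sequences were used here, so that which copy each probe set reads is unknown.

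**Figure D1:**
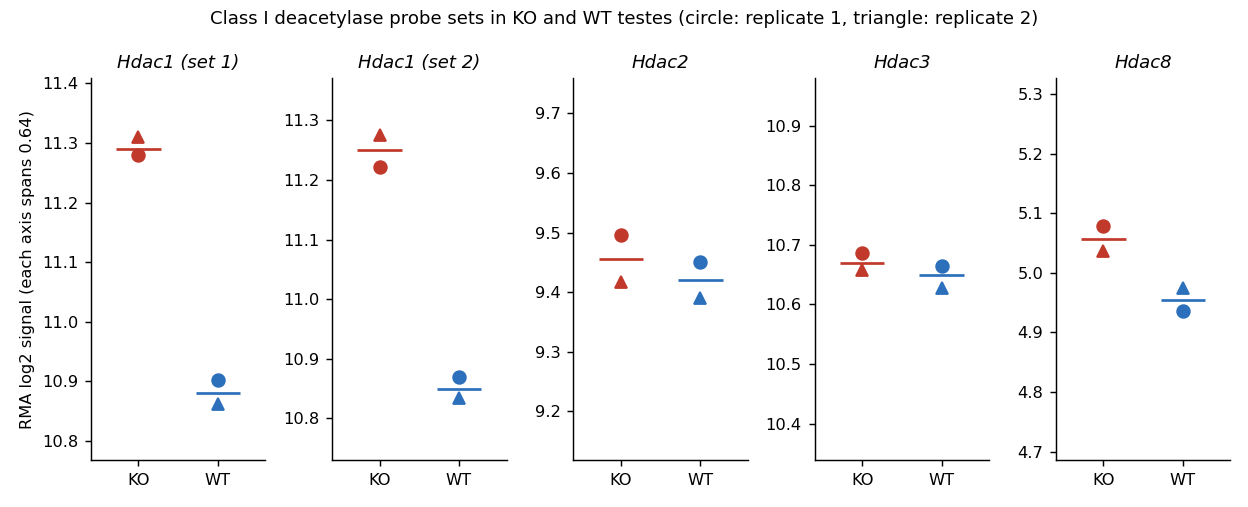
RMA log2 signal (vertical axes, each with the same span) of the 5 class I deacetylase probe sets in KO (red) and WT (blue) testes, with circles for replicate 1, triangles for replicate 2 and bars for means of 2 pools. The KO points of both Hdac1 sets lie above 11.2 and the WT points at or below 10.90, while the points of Hdac2 and Hdac3 overlap.

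The Hdac1 difference ranged from 0.39 to 0.43 in the first set when each of the 4 arrays was left out in turn. In the second set it ranged from 0.37 to 0.42. These ranges restate how close the pools of one genotype lie, so nothing is read from them about stability. With quantile normalization applied again the difference in the first set was 0.40, and with each array centred on its median 0.43. The array medians were already close, so these settings could change little. An exact permutation test of 2 against 2 pools cannot give a two-sided p below 0.333, so that the number of arrays limits what can be said of any single gene.

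Hdac2, the closest relative of Hdac1 and its partner in the same complexes, had log2 signals of 9.50 and 9.42 in the KO pools and of 9.45 and 9.39 in the WT pools. The genotypes overlapped, with the higher WT pool 0.034 above the lower KO pool. The means were 9.46 ± 0.056 (SD, n = 2) in KO and 9.42 ± 0.043 (SD, n = 2) in WT, a log2 difference of 0.036 (standard error 0.057), which is smaller than the SD of the KO pools. Without KO replicate 1 the difference was -0.0038, and without KO replicate 2 it was 0.076. Of the named probe sets, 34.6% had a log2 difference at least as high as that of Hdac2.

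Hdac3, the catalytic subunit of the NCoR/SMRT complex, was at 10.69 and 10.66 in the KO pools and at 10.66 and 10.63 in the WT pools on the log2 scale. The genotypes overlapped narrowly, as KO replicate 2 lay below WT replicate 1 by a log2 signal of under 0.01. Over all 4 arrays its signals spanned 0.058, the narrowest span of the 5 probe sets. The log2 difference was 0.025 (standard error 0.049) and ranged from 0.0068 to 0.044 when single arrays were left out.

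Hdac8, the deacetylase that acts on cohesin, had a dim probe set, below the median of every array. Its log2 signals were 5.08 and 5.04 in the KO pools and 4.94 and 4.97 in the WT pools. Both KO pools lay above both WT pools, with a gap of 0.062 between the lower KO and the higher WT pool. The means were 5.06 ± 0.030 (SD, n = 2) in KO and 4.96 ± 0.027 (SD, n = 2) in WT, a log2 difference of 0.10 (standard error 0.051), and 9.67% of the named probe sets had one at least as high. At such a level much of an array signal can be background, which narrows differences on the log2 scale.

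Of the 5 class I probe sets, 3 (both of Hdac1, and that of Hdac8) had both KO pools above both WT pools, as had 20.1% of the named probe sets. Nothing is read from this count, since Hdac1 was chosen on it. The signal levels of the 4 genes were not ranked, because each probe set has its own probes and length.

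The markers of germ and somatic cells were examined as list means. The mean of 8 spermatocyte markers was the 1 of 9 lists in which both KO pools lay above both WT pools, at 0.061 and -0.0014 in KO and -0.022 and -0.038 in WT relative to its mean over the 4 arrays. This is a log2 difference of 0.059, against 0.41 for Hdac1, and the part of spermatocytes in the Hdac1 result was not tested. The genotypes overlapped for the other 8 lists, whose log2 differences ranged from -0.15 for 5 macrophage markers to 0.10 for Alas2, the single red blood cell marker with a value. The means of 8 spermatogonia markers and of 8 spermatid markers differed by 0.023 and 0.00023. All 5 macrophage, all 4 endothelial and 5 of 6 Leydig markers lay below 0. Above it lay all 8 spermatocyte, 7 of 8 Sertoli and 3 of 4 peritubular myoid markers. Of the spermatogonia and spermatid markers, 5 of 8 and 4 of 8 lay above 0, as did 10654 of the 18820 genes.

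The other deacetylases were examined beside the class I genes. All 14 genes of classes II to IV had a value, 7 above and 7 below 0, with a median log2 difference of -0.0064, against 0.011 over the 18820 genes. None passed an adjusted p of 0.05 or an unadjusted p under 0.05 from limma, where 0.00531% and 3.95% of all genes did. By the ordinary equal-variance test, 1 of the 14 had an unadjusted p under 0.05, as had 1154 of the 23099 named probe sets. The highest was Sirt6, a chromatin-bound sirtuin, with log2 signals of 8.57 and 8.36 in the KO pools and 8.29 and 8.21 in the WT pools. Its KO pools did not overlap with its WT pools, but they were further apart from each other than the lower was from the higher WT pool (log2 difference 0.22, standard error 0.085, unadjusted p = 0.0523 from limma). Without KO replicate 1 the log2 difference of Sirt6 was 0.11 (unadjusted p = 0.209 from limma), and without KO replicate 2 it was 0.32 (unadjusted p = 0.0108 from limma). The NAD-dependent deacetylase gene Sirt1 had a log2 difference of 0.10 (standard error 0.048).

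At the other end were the mitochondrial sirtuin gene Sirt4, with a log2 difference of -0.13 (standard error 0.064), and Hdac10, a class IIb gene whose enzyme acts on acetylated polyamines, with -0.09 (standard error 0.079). The genotypes of Hdac10 overlapped, and its probe set is dim, below the median of every array. The genes of class IIa, which act largely through the Hdac3 complex and are known for their role in muscle and other differentiated cells, were at -0.04 for Hdac4, -0.02 for Hdac5, -0.09 for Hdac7 and 0.02 for Hdac9. The tubulin deacetylase gene Hdac6 was at -0.04 and the class IV gene Hdac11 at 0.06. All of these lay nearer to 0 than Hdac1 did.

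**Figure D2:**
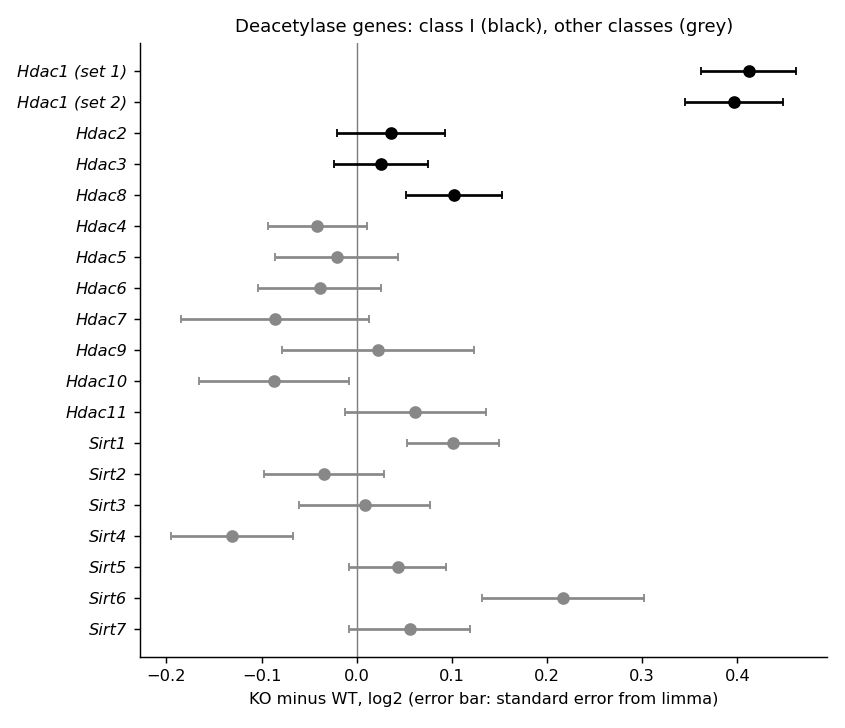
KO minus WT on the log2 scale (horizontal axis) for the 5 class I probe sets (black) and the 14 other deacetylase genes (grey), with standard errors from limma, n = 2 pools for each genotype. The Hdac1 sets lie at 0.41 and 0.40, and the other genes lie between -0.13 (Sirt4) and 0.22 (Sirt6).

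Of 50 subunits of the complexes that hold class I deacetylases, 46 had a value of their own. Their median log2 difference was 0.0074, with 28 above and 18 below 0. None passed an adjusted p of 0.05 from limma. At an unadjusted p under 0.05, the ordinary test called 2 of the 46, where it called 1154 of the 23099 named probe sets. By limma, 1 of the 46 (2.17%) was higher in KO and 0 were lower, no more than the 3.95% of all genes. The 1 was Sap30l, a SIN3 subunit, with log2 signals of 6.66 and 6.73 in the KO pools and 6.58 and 6.44 in the WT pools (log2 difference 0.19, standard error 0.068, unadjusted p = 0.0399 from limma). Its adjusted p from limma was 0.9995. Its unadjusted p from limma was 0.0234 when WT replicate 1 was left out, and between 0.0568 and 0.175 when any of the other 3 arrays was.

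Within the SIN3 complex, 17 subunits ranged from -0.08 for the scaffold gene Sin3a and -0.07 for Arid4b up to Sap30l, with a median log2 difference of 0.0032. Rbbp7, a histone-binding subunit shared by SIN3 and NuRD, had log2 signals of 10.27 and 10.20 in the KO pools and 10.09 and 10.15 in the WT pools, a log2 difference of 0.11 (standard error 0.055). Its genotypes did not overlap. Rbbp4, its close paralog, lies 0.37 Mb from Azin2 and is the 1 listed gene within 5 Mb of it. Its 2 probe sets are shared with Sync, so that Rbbp4 has no value of its own. The 12 NuRD subunits with a value had a median log2 difference of 0.044, the lowest being Chd5, a chromodomain remodeler of spermatids, at -0.08, and Mbd2, a reader of methylated DNA, at -0.07. Next to Rbbp7, the highest NuRD subunit was Cdk2ap1 at 0.10. Both KO pools lay above both WT pools in 8 of the 46 subunits (17.4%), against 20.3% of all genes. These were 5 of 12 genes in NuRD, 3 of 17 in SIN3 and 1 of 6 in MiDAC and MIER, with Rbbp7 counted in both NuRD and SIN3, and 0 of 9 in CoREST and 0 of 3 in NCoR/SMRT.

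The 9 CoREST genes lay between -0.03 for the scaffold gene Rcor2 and 0.14 for Gse1, whose log2 difference became -0.0062 when WT replicate 2 was left out and came to 0.29 when WT replicate 1 was. The histone demethylase gene Kdm1a, the other enzyme of this complex, was at -0.03 and Zmym3 at 0.07. The NCoR/SMRT genes with a value were Tbl1x at 0.04, Gps2 at 0.0079 and Tbl1xr1 at -0.0024. Among 6 MiDAC and MIER genes, Trerf1 was at 0.13 (standard error 0.056), Mideas at 0.12, Mier1 at 0.0073 and Mier3 at -0.03. Of all 46 subunits, Sap30l had the highest log2 difference and Chd5 the lowest.

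Of 14 genes that add acetyl groups to histones or read them, 12 had a value, with a median log2 difference of 0.025. None passed an adjusted p of 0.05 or an unadjusted p under 0.05 from limma, where 0.00531% and 3.95% of all genes did. At an unadjusted p under 0.05 the ordinary test called 0 as well, where it called 1154 of the 23099 named probe sets. With shares this low, nothing is read from a count of 0 among 12 genes. They ranged from -0.04 for Ep300, an acetyltransferase of enhancers, and -0.04 for Kat2b up to 0.06 for Crebbp, the paralog of Ep300, and 0.08 for Kat2a, the acetyltransferase of the SAGA complex.

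**Figure D3:**
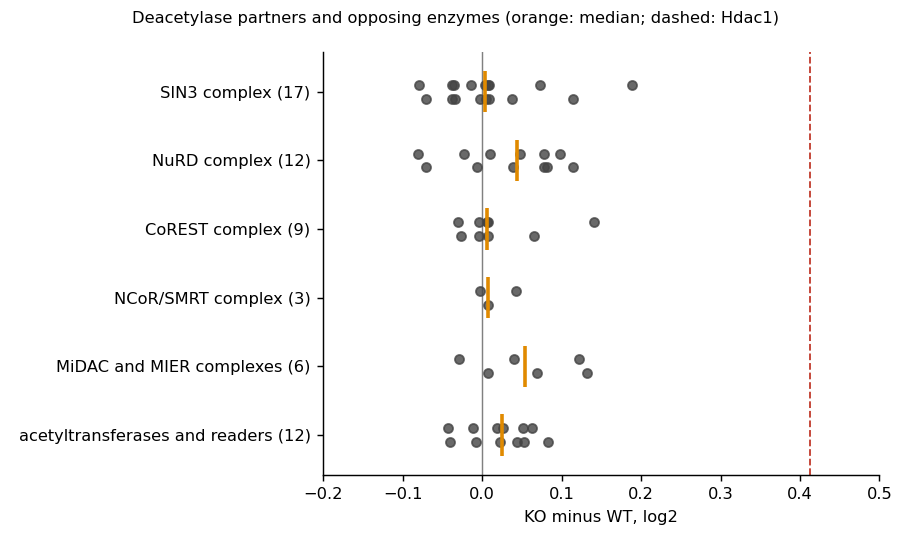
KO minus WT on the log2 scale (horizontal axis) for subunits of class I deacetylase complexes and of acetyltransferases and readers, with 1 point for each gene, the number of genes in brackets and orange bars for medians. The points lie between -0.08 and 0.19, and the dashed line marks Hdac1 at 0.41.

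As Hdac1 lies near the targeted locus, its chromosomal neighbours were examined. Of 39 genes with a value within 1 Mb of Hdac1 (Azin2 and Hdac1 left out), 2 (5.13%) passed an unadjusted p of 0.01 in limma, as did 0.627% of all genes, and none passed an adjusted p of 0.05. Their median log2 difference was 0.022. At an unadjusted p under 0.05 from limma, 2 were higher and 2 lower in KO (10.3% in all, against 3.95% of all genes). The lower ones, named after their values were seen, were the neuronal calcium sensor gene Hpca (log2 difference -0.36, unadjusted p = 0.0305 from limma) and Ccdc28b (log2 difference -0.16, unadjusted p = 0.0306 from limma). Tmem39b, a transmembrane protein gene 0.16 Mb from Hdac1, had log2 signals of 10.22 and 10.31 in the KO pools and 9.85 and 9.79 in the WT pools (log2 difference 0.45, standard error 0.058, unadjusted p = 0.000592 from limma). Its genotypes did not overlap, and its p was at most 0.0048 when any 1 array was left out. Fndc5, which encodes the precursor of irisin, lies 0.389 Mb from Hdac1 on the side of Azin2 and had log2 signals of 8.80 and 8.82 in KO and 8.62 and 8.48 in WT (log2 difference 0.26, unadjusted p = 0.00987 from limma). Its unadjusted p from limma was 0.0311 when KO replicate 1 was left out, 0.0402 when KO replicate 2 was and 0.0433 when WT replicate 2 was, so that the count of 2 fell to 1 in each case.

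The nearest genes with a value on either side had smaller log2 differences than Hdac1. Marcksl1, a MARCKS-related gene on the side of Azin2, was at 8.69 and 8.72 in the KO pools and at 8.68 and 8.41 in the WT pools (log2 difference 0.17, standard error 0.099, unadjusted p = 0.152 from limma). Its KO pools lay within 0.05 of WT replicate 1. As no probe sequences were used, whether the Marcksl1 probe set reads this locus alone is unknown. Fam167b, on the other side, was at 5.66 and 5.80 in KO and 5.76 and 5.70 in WT, with overlapping genotypes and a log2 difference of -0.0016 (standard error 0.068). Its probe set is dim, below the median of every array, where background can narrow differences. Within 5 Mb of Hdac1, 10 of 166 genes (6.02%) had an unadjusted p under 0.01 from limma, 8 higher and 2 lower in KO. That this region holds more such genes than the rest of the genome was known when Hdac1 was chosen.

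**Figure D4:**
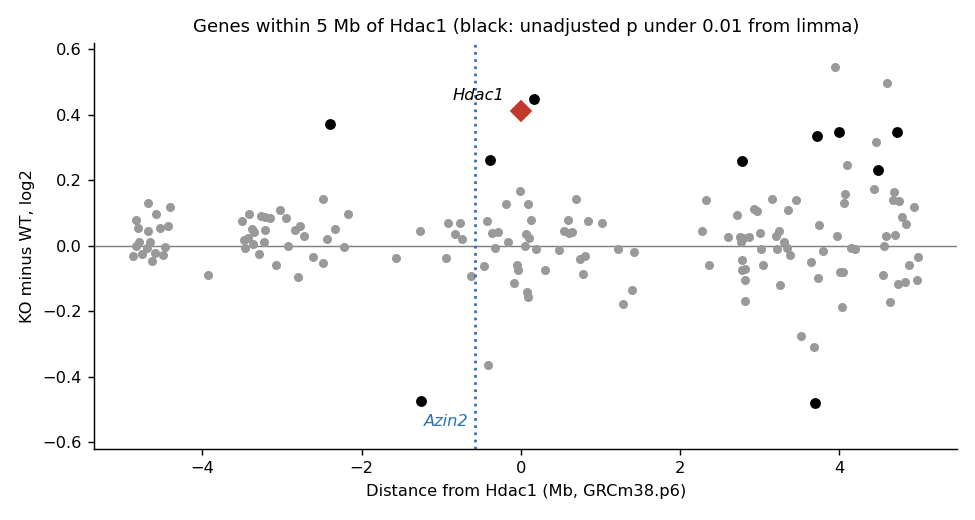
KO minus WT on the log2 scale (vertical axis) for 166 genes within 5 Mb of Hdac1 against their distance from it (horizontal axis, Mb in GRCm38.p6), with the 10 genes at an unadjusted p under 0.01 in black, Hdac1 as a red diamond and a dotted line at Azin2. Higher and lower genes lie among many near 0. The nearest genes with a value on either side are Marcksl1 at 0.17 and the dim Fam167b at -0.0016. Tmem39b, 0.16 Mb from Hdac1, lies at 0.45.

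The 5 genes with a profile most like that of Hdac1 over the 4 arrays were found by the root mean square difference of the log2 signals, each gene's mean taken off. They were Tmem39b (0.028), the transmembrane protein gene Tmem35b (0.029), the noncoding transcript gene E330013P04Rik (0.029), the unconventional myosin gene Myo15b (0.044) and the kinase gene Map3k6 (0.051). The other class I genes were at 0.16 for Hdac8, 0.19 for Hdac2 and 0.19 for Hdac3, where the median of 18819 genes was 0.21. In this order Hdac8 came 1421st, Hdac2 5886th and Hdac3 6404th. Of the 5, the 3 genes Tmem39b, Tmem35b and Map3k6 lie on chromosome 4, at 0.16, 2.4 and 3.72 Mb from Hdac1. Within 5 Mb of Hdac1 lie 166 of the 18820 genes. Nothing is read from the count of 3, since this region was already known to hold more genes that differ. E330013P04Rik and Myo15b lie on chromosomes 19 and 11. The log2 differences of the 5 ranged from 0.32 for Myo15b to 0.45 for Tmem39b, which follows from how they were chosen.

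**Figure D5:**
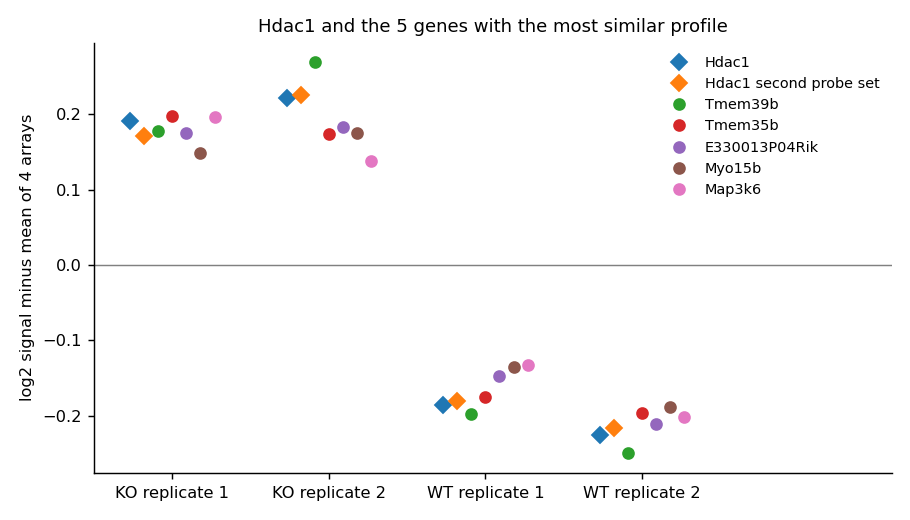
Log2 signal minus the mean of the 4 arrays (vertical axis) of both Hdac1 probe sets (diamonds) and of the 5 genes with the most similar profile (circles) in each array. The genes lie above 0.1 in both KO pools and below -0.1 in both WT pools, and the pools of one genotype lie close together.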

How the data were processed

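Testis RNA pools were hybridized to 4 Affymetrix Mouse Gene 1.1 ST arrays. The authors deposited log2 signals per probe set from RMA, and per the labels used Partek 6.13.1224. The labels name a 3′ IVT labelling kit, whereas the array is a whole-transcript design. Genome build, annotation version and summarization level are not given in the sources used here. RMA shrinks differences of dim probe sets.

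Of 35556 probe sets, 21218 have 1 symbol, 1881 several and 12457 are unnamed here. Symbols were updated through gene identifiers to RefSeq (GRCm38.p6), which also gave neighbours. A gene with several probe sets was represented by that with the highest mean.

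KO was compared with WT over the 23099 named probe sets by limma 3.58.1 in R 4.3.3, with Benjamini-Hochberg adjustment. It used lmFit and eBayes without a filter, and the prior had 2.96 degrees of freedom. The fit was tried on simulated data drawn from its own model, which cannot show how well that model holds for these arrays. P-values measure the spread between pools, which may be technical. The methods name ANOVA and Student's test, without saying which was used for the arrays. Named from the lists other than the markers were genes with an unadjusted p under 0.05 and the 2 highest and 2 lowest. From the markers, those with an unadjusted p under 0.05 were named. Near Hdac1, those under 0.01 and direct neighbours were. The members and lists were chosen with earlier results of these data known. The alternatives were quantile normalization, centring, an intensity trend, robust eBayes, the ordinary test, a filter, every probe set, a replicate block, another window and each array left out. Figures were drawn with matplotlib 3.10.9.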

Additional observations from a re-analysis of the deposited data

How the results depend on the processing

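The log2 differences of Hdac1, Hdac2, Hdac3 and Hdac8 moved by less than the SD within genotypes under quantile normalization and centring. That of Hdac1 also did so when its probe sets were averaged. With single arrays left out, the 4 differences ran from 0.39 to 0.43, -0.0038 to 0.076, 0.0068 to 0.044 and 0.081 to 0.12. Hdac2 crossed 0 without KO replicate 1. Leaving out 1 of 2 pools cannot move a difference by more than this SD, and the balanced replicate block cannot move it at all. These settings therefore say nothing about stability by that measure. Leaving out single arrays, where the lone pool of a genotype is assumed to vary like the other genotype, gave 0 to 2 named probe sets past an adjusted p of 0.05 (1 with all arrays), 0 to 2 complex partners (1) and 0 to 2 other deacetylases (0) and 0 to 1 acetyltransferases and readers (0) at an unadjusted p under 0.05, and 1 to 3 genes within 1 Mb of Hdac1 (2) at an unadjusted p under 0.01. Quantile normalization gave 2 complex partners and 1 other deacetylase, and centring 1 other deacetylase. An intensity trend, alone or with robust eBayes, gave 0 complex partners and 1 gene near Hdac1. The ordinary test gave 0 past an adjusted p of 0.05, 2 complex partners and 1 other deacetylase. At an unadjusted p under 0.05 it called 1154 of the 23099 named probe sets. When probe sets below the median level were dropped, 356 in place of 946 had an unadjusted p under 0.05, with 0 complex partners and 1 gene near Hdac1. Fewer probe sets were tested there, and how far this accounts for the lower count was not tested. With every probe set of the table, 0 passed an adjusted p of 0.05 and 1724 an unadjusted one, with 0 complex partners and 1 gene near Hdac1. A window of 5 Mb held 10 called genes. The replicate block gave 0 complex partners, 1 other deacetylase and 1 gene near Hdac1, and 692 probe sets at an unadjusted p under 0.05. Same-numbered pools share only a number, with a correlation of their deviations of -0.082. Where no construction is named, the cause was not tested.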
